A study of Mus musculus with 18 samples.

Results

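The 5p arms of the miR-297, miR-466, miR-467 and miR-669 families were followed from the mouse blastocyst to embryonic stem cell (ESC) lines. Members were chosen by name alone: a mature miRNA belongs here if its name starts with one of these 4 family names and ends in -5p. Of 1390 miRNAs in the deposited table, 31 met this rule. Of these, 3 pairs had identical values in all 18 libraries (miR-669a-5p with miR-669p-5p, miR-466m-5p with miR-669m-5p, and miR-466b-5p with miR-466o-5p), which left 28 distinct members. Each pair is named below by its first member, and its reads cannot be told apart. miR-466h-5p equalled miR-466m-5p in 16 of 18 libraries and is not an independent measurement either.

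The study sequenced small RNAs from the inner cell mass (ICM) of NMRI mouse blastocysts, from ICM outgrowths, and from the ESCs that grew out of them. There were 18 libraries, 2 for each of 9 groups. These were fresh ICM (day 0), outgrowths collected on day 0.5, day 1, day 2, day 3 and day 5, and ESCs with the passage code P2, P4 or P15 in their description. ICMs were freed of trophectoderm by immunosurgery and plated on gelatin, and cells of all groups are labelled with R2i medium and leukemia inhibitory factor. R2i holds the MEK inhibitor PD0325901 (1 μM) and SB431542 (10 μM), an inhibitor of activin and TGF-β type I receptors. Females had been superovulated with HCG and PMSG, and the number of ICMs behind each library is not given in the sources used here. Titles of the ESC libraries give passages 4, 15 and 2 where the descriptions say P2, P4 and P15, so ESC groups are named here by description and are not placed in passage order. Nothing in the labels says that the 2 libraries of a group came from separate embryos or cultures, so p-values measure the spread between these libraries, which may be technical.

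A miRNA hairpin is cut by Drosha and Dicer into a duplex of a 5p and a 3p strand, and usually one strand is loaded into Argonaute while the other is degraded. The loaded strand finds its targets mainly through its seed, bases 2 to 8. The 4 families form a large rodent cluster inside Sfmbt2, a Polycomb group gene that is imprinted and expressed from the paternal allele in early embryos and extraembryonic tissue. Loss of this cluster in mice is known to impair placental growth. Many of its hairpins are near copies of each other with stretches of alternating U and G on one arm and C and A on the other.

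In the GENCODE vM21 annotation of GRCm38 (mm10), Sfmbt2 (ENSMUSG00000061186.15) lies on the plus strand of chromosome 2 from 10370510 to 10595253. Of 81 annotated hairpins of the 4 families, 71 lay inside it, between 10466663 and 10518279. All 71 fell in 1 intron, intron 10 of a transcript with 23 exons, which runs from 10461473 to 10523944. Hairpins could be matched by name for 30 of the 31 members, and for 29 all of them lay in this intron. miR-466f-5p had 3 of its 4 hairpins there, and miR-466a-5p matched none by name. The number of hairpins behind a member ranged from 1 to 14. The row of miR-669a-5p and miR-669p-5p had 14 hairpins, miR-467a-5p had 10, and the row of miR-466b-5p and miR-466o-5p had 9. Copy number did not rank the members by level, since miR-467c-5p and miR-467d-5p, with 1 hairpin each, were among the 4 most abundant, and Spearman's rho between copies and mean level was 0.2 over 27 distinct members. These points share hairpins of near-identical sequence, and the value is a description only.

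RefSeq entries on GRCm38.p6 gave mature sequences for relatives of the families that lie outside chromosome 2. They are shown because they carry the repeat pattern of the families, with the seed (bases 2 to 8) in capitals.
miR-467h: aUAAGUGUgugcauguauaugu
miR-669n: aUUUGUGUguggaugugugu
miR-466k: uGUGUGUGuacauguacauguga
miR-466i-3p: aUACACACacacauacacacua
The first 3 have names without an arm. miR-467h holds 10 UG or GU steps in 22 bases, miR-669n 13 in 20 and miR-466k 13 in 23. miR-466i-3p holds none, and has 15 CA or AC steps in 22 bases. The 4 seeds differ from each other.

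Values were normalized counts that the authors deposited as whole numbers, with library totals from 602238 to 1265117. The earlier stages were sequenced less deeply. From ICM to day 3 (10 libraries) each read counted for 1.733 to 5.438 units and no value below 5 reads was listed, so that totals came to about 111000 to 370000 reads. The remaining 8, of day 5 and ESCs, listed values down to 1 or 2. A member at 0 in days 0 to 3 can therefore hold any level below 5 reads, which is up to 27.2 normalized counts where depth was lowest. All comparisons were therefore also made with values below 27.2 raised to 27.2, the common floor. Libraries raised to the floor become identical, so p-values there may be too low for members with many such values. Among marker miRNAs of other cell types, the summed level of 8 fibroblast and smooth muscle miRNAs was 7168 and 8481 in ICM, 21566 and 9592 on day 3 and was 2102 to 4814 in ESCs. miR-145a-5p, miR-199a-5p and miR-199b-5p were at 0 in ICM. Members of this list moved both ways from ICM to ESCs on the log2 scale. miR-143-3p (2.21) and miR-145a-5p (5.62) rose, while miR-10b-5p (-2.97), miR-145a-3p (-3.05) and miR-199a-3p (-2.36) fell. The 4 endoderm markers summed to 1854 and 1957 in ICM, 760 to 2115 in outgrowths and 1064 to 4015 in ESCs. The sum of the 4 blood markers found under their listed names, of 8, was 100 and 114 in ICM, 1856 and 1096 on day 5 and 256 to 494 in ESCs. That sum leaves out miR-142a-3p and miR-142a-5p, which the table holds as miR-142-3p and miR-142-5p. From ICM to ESCs their log2 changes were 5.58 and 2.32. The 9 pluripotency markers found under their listed names, of 11, summed to 47292 and 48329 in ICM, 34840 to 51566 in outgrowths and 53519 to 68432 in ESCs. Left out of it were miR-292a-3p and miR-292a-5p, held as miR-292-3p and miR-292-5p, with log2 changes from ICM to ESCs of 0.31 and 0.09. The part of these cells in the results on the members was not tested, and fewer cells of a type cannot be told apart from less of a miRNA per cell in such bulk samples.

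Most members were scarce. Of the 28 distinct members, 8 were above 0 in every library, 14 were at 0 in both ICM libraries, and 6 were at 0 in all 10 libraries of days 0 to 3. In 24 at least 2 libraries reached 10 and these were tested, and 21 could be tested at the floor. The other 4 never exceeded 4 (miR-297c-5p), 9 (miR-466p-5p), 12 (miR-466a-5p) and 19 (miR-466f-5p). The 8 members with a mean of at least 100 over all libraries were miR-669a-5p (602.9), miR-467a-5p (537.8), miR-467c-5p (452.3), miR-467d-5p (367.2), miR-669c-5p (171.3), miR-467b-5p (109.3), miR-466m-5p (102.4) and miR-466h-5p (101.8). The first 4 made up 59.2% to 84.0% of the summed 5p level in every library. Ranked among all 1390 miRNAs by group mean, miR-669a-5p moved between rank 173 on day 0.5 and rank 50 in ESC P2, the highest rank of any member. In ESC P2 miR-467a-5p was at rank 63 and miR-467c-5p at rank 67.

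**Figure D1:**
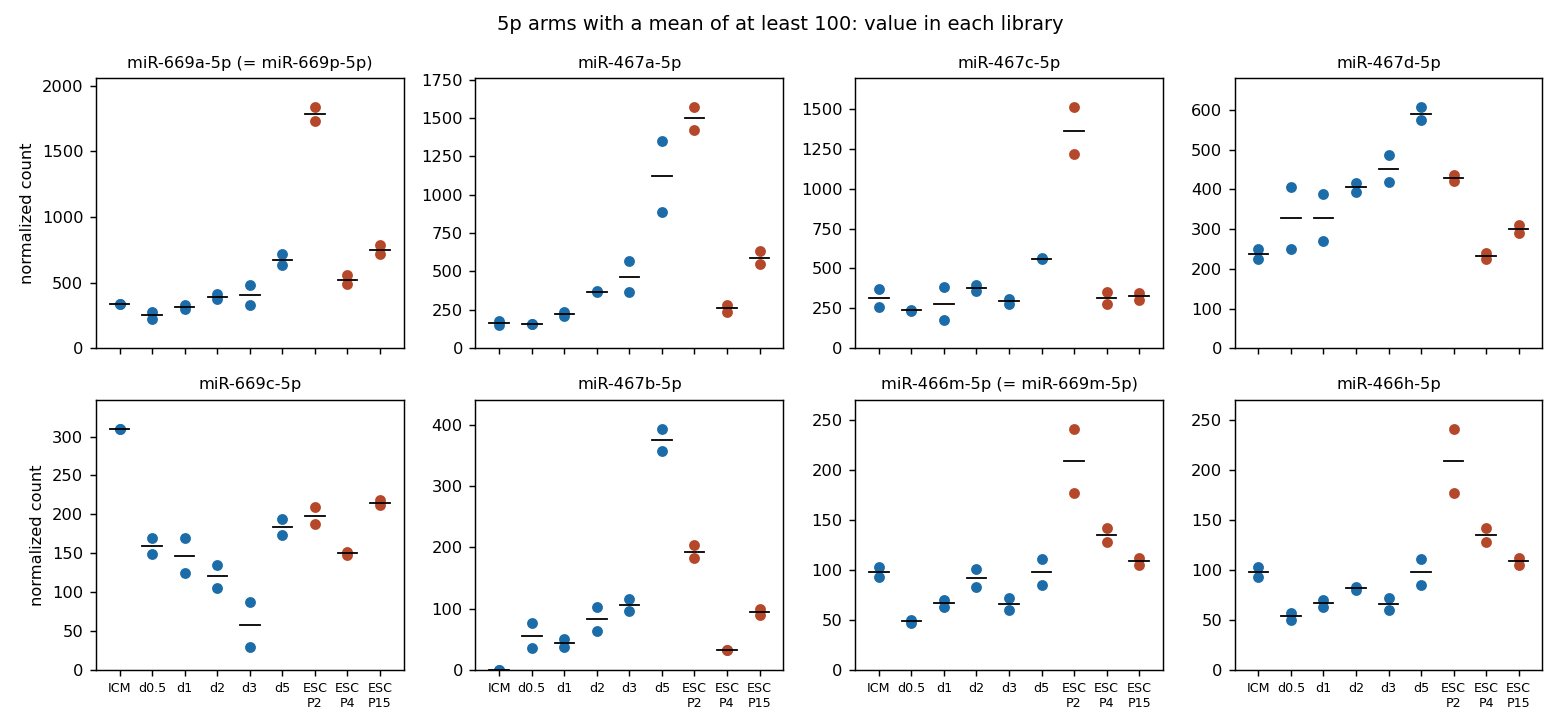
Normalized count (y axes, linear from 0, a separate scale for each panel) of the 8 members with a mean of at least 100, in each of the 2 libraries of each group (x axes). Points are libraries (blue, ICM and outgrowths; red, ESCs) and bars are group means. In 5 panels (miR-669a-5p, miR-467a-5p, miR-467c-5p, miR-466m-5p and miR-466h-5p) ESC P2 is the highest group, while miR-467d-5p and miR-467b-5p peak on day 5 and miR-669c-5p is highest in ICM.

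The first question was which members changed in culture before a line existed. miR-467a-5p, miR-467b-5p and miR-467d-5p rose in outgrowths relative to ICM, and miR-669c-5p fell. No member of the miR-297 or miR-466 families passed on the values as deposited. By limma at a Benjamini-Hochberg adjusted p below 0.05, 3 of 24 members were higher and 1 was lower, where 16.7% of all 795 tested miRNAs were higher and 18.2% lower. The members' median log2 change was 0.78 against -0.30 over all tested miRNAs, but at the floor it was 0.02, with 3 of 21 higher and 3 lower (19.5% and 26.3% of 589). Of those 3, 2 were miR-466m-5p (-0.44, adjusted p = 0.0475) and its near copy miR-466h-5p (-0.45, adjusted p = 0.0414), which also passed as lower with totals made equal (adjusted p = 0.0261 and 0.0301).

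miR-467a-5p was at 174 and 149 in ICM, at 158 and 156 on day 0.5, at 238 and 207 on day 1 and at 370 and 366 on day 2. It reached 568 and 365 on day 3 and 888 and 1349 on day 5. Every outgrowth library from day 1 on lay above both ICM libraries, and the day 5 libraries lay above all earlier ones. The mean log2 change of outgrowths against ICM was 1.17 (SE 0.18, limma adjusted p = 0.000465), and the 5 groups of days 0 to 3 differed from each other (moderated F, adjusted p = 0.000738). Over days 0 to 3 the estimated reads were 111000 and 202000 in ICM, 234000 and 236000 on day 2 and 201000 and 370000 on day 3, and the lowest value of miR-467a-5p there, 149, was above the floor.

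miR-467b-5p was at 0 in both ICM libraries and was listed in every later one. It stood at 76 and 35 on day 0.5, 51 and 38 on day 1, 102 and 63 on day 2 and 115 and 96 on day 3. On day 5 it reached 394 and 357, above every other library of the series. At the floor the change against ICM was 1.75 (limma adjusted p = 0.00018), and days 0 to 3 differed with an adjusted p of 0.00331. The lowest day 0.5 and day 1 values lie near the floor, so the first step away from 0 is the least certain.

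miR-467d-5p held 250 and 226 in ICM, 251 and 407 on day 0.5, 270 and 388 on day 1, 416 and 394 on day 2, 486 and 419 on day 3 and 607 and 574 on day 5. All 10 outgrowth libraries were above the ICM libraries, by 1 normalized count in the closest case. The log2 change was 0.77 (SE 0.18, limma adjusted p = 0.0054), and days 0 to 3 differed (adjusted p = 0.0383). With all library totals made equal, the first of these values became 0.50 and no longer passed (adjusted p = 0.0659). miR-467c-5p, the fourth abundant member of the family, held 261 and 372 in ICM and 176 to 397 on days 0.5 to 3, and these ranges overlap. Its change in outgrowths was 0.08 (SE 0.24, adjusted p = 0.803).

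miR-669c-5p moved the other way. It was at 310 in both ICM libraries, at 170 and 149 on day 0.5, at 125 and 169 on day 1, at 135 and 105 on day 2 and at 29 and 87 on day 3. It then stood at 173 and 194 on day 5. Every outgrowth library lay below ICM. The lowest, day 3 replicate 1 at 29, was also the library with the highest fibroblast and smooth muscle sum (21566), whose part was not tested. The log2 change was -1.35 (SE 0.30, limma adjusted p = 0.00514), and days 0 to 3 differed (adjusted p = 0.00308).

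miR-669a-5p, the most abundant member, was at 337 and 335 in ICM, 279 and 226 on day 0.5, 328 and 296 on day 1, 373 and 411 on day 2 and 481 and 330 on day 3. The F test among days 0 to 3 gave an adjusted p of 0.0514. miR-466m-5p held 103 and 93 in ICM, 47 and 50 on day 0.5, 63 and 70 on day 1, 83 and 101 on day 2 and 72 and 60 on day 3. It was lowest on day 0.5 (F test, adjusted p = 0.042), and so was its near copy miR-466h-5p at 57 and 50 (adjusted p = 0.105, and 0.0326 at the floor).

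Among days 0 to 3, 6 of 24 members differed by this F test, against 45.5% of all tested miRNAs, and at the floor 7 of 21 (52.8%). Both shares were below the background. By family these were 3 of 5 miR-467 members, 2 of 10 miR-669 members, 1 of 7 miR-466 members and neither of 2 miR-297 members. miR-669b-5p, the scarcest of the 6, held 0 and 28 in ICM, 36 and 21 on day 0.5, 0 and 0 on day 1, 30 and 38 on day 2 and 0 and 0 on day 3. Its values cross the detection limit back and forth, and the call was lost at the floor (adjusted p from 0.00662 to 0.707).

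Of 24 tested members, 11 had both day 5 libraries above all 10 libraries of days 0 to 3, where 15% of all tested miRNAs did. Among the 11, miR-297a-5p, miR-466c-5p, miR-669d-5p, miR-669e-5p and miR-669k-5p held only 8 to 33 on day 5, near or below the floor. The rest were the tested miR-467 members and miR-669a-5p. The 6 members that were at 0 throughout days 0 to 3 were at 19 or less on day 5, below the floor of 27.2. In the deepest of the earlier libraries, day 0.5 replicate 1 among them, 5 reads came to about 8.7, so part of these levels could have been listed there. In ESC P2 miR-669d-5p (39 and 47) and miR-669k-5p (48 and 54) were above the floor. miR-669a-5p reached 632 and 714 and miR-467c-5p 565 and 557 on day 5, above all of days 0 to 3 in both cases, and these levels are well over the floor. The summed 5p level was 1693 ± 157 normalized counts in ICM, 2019 ± 247 on day 3 and 4124 ± 356 on day 5 (SD, n = 2). The miR-467 family held most of it on day 5, with 2738 ± 255, followed by miR-669 (1055 ± 62), miR-466 (302 ± 48) and miR-297 (29.5 ± 7.8). Depth was also greater on day 5 than on day 3, and for members near the floor depth and stage cannot be told apart. The fibroblast and smooth muscle sum was 2257 and 2916 on day 5, against 21566 and 9592 on day 3, and its part was not tested.

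The second comparison asked what separates ESCs from the ICM they derive from. Most 5p members were higher in ESCs, and none passed as lower. By limma 19 of 24 were higher and 0 lower, where 31.8% of all tested miRNAs were higher and 23.1% lower. These counts cross the depth difference between ICM and ESCs, under which unchanged scarce miRNAs can be called. Of the 24 members, 20 had an unadjusted p below 0.05 in either direction. The members' median log2 change was 3.25 against 0.02 over all tested miRNAs. At the floor 17 of 21 were higher (36.2% of all), with a median of 0.56. Among the 17, miR-669d-5p, miR-669h-5p, miR-466e-5p and miR-669k-5p entered the floor test only through ESC P2. Of the 8 members above 0 in every library 6 were higher, with a median of 0.64. By family the calls were 7 of 7 miR-466 members, 7 of 10 miR-669, 4 of 5 miR-467 and 1 of 2 miR-297.

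ESC libraries also had larger totals than ICM in this normalization, and rescaling to equal totals lowered the median of all miRNAs from 0.02 to -0.46. The members then counted 15 higher and 1 lower (25.8% and 27.5% of all tested miRNAs), and the 8 detected throughout 2 higher and 1 lower with a median of -0.07. Without ESC P2 the members counted 15 higher (30.1% of all), and the 8 detected throughout 2 higher.

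miR-467a-5p and miR-669a-5p held in all these settings. miR-467a-5p was at 1569 and 1424 in ESC P2, 283 and 237 in P4 and 550 and 630 in P15, against 174 and 149 in ICM. All 6 ESC libraries were above ICM, and the log2 change was 1.92 (SE 0.19, limma adjusted p = 6.68e-06). miR-669a-5p was at 1730 and 1834 in P2, 556 and 490 in P4 and 785 and 716 in P15, again all above the 337 and 335 of ICM. Its log2 change was 1.40 (SE 0.15, adjusted p = 1.03e-05).

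miR-467b-5p, at 0 in ICM, was at 204 and 182 in P2, 32 and 32 in P4 and 90 and 100 in P15. Its change at the floor was 1.59 (limma adjusted p = 0.000274), and its P4 libraries were close to the floor. miR-467c-5p was at 1218 and 1510 in P2, but at 278 and 353 in P4 and 344 and 305 in P15, within the 261 and 372 of ICM. Its log2 change of 0.73 (SE 0.25, adjusted p = 0.0292) was 0.03 without P2 (adjusted p = 0.944) and did not pass without ICM replicate 1, ESC P2 replicate 2, ESC P4 replicate 2 or ESC P15 replicate 1 either (0.47 to 0.70).

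miR-466m-5p and its near copy miR-466h-5p shared their ESC values of 177 and 241 in P2, 128 and 142 in P4 and 112 and 105 in P15, all above the 103 and 93 of ICM by as little as 2 normalized counts. Both changed by 0.56 (SE 0.21), with adjusted p of 0.0451 and 0.0424. This fell to 0.30 without P2 and turned to -0.15 when totals were made equal, and 7 of the 18 removals of a single library also ended the call for each, among them that of either ICM library. miR-467d-5p held 421 and 436 in P2, 224 and 239 in P4 and 310 and 291 in P15, and its P4 values overlapped those of ICM (log2 change 0.38, SE 0.18, adjusted p = 0.102). miR-669c-5p stayed below ICM in all 6 ESC libraries, at 187 and 210 in P2, 152 and 148 in P4 and 212 and 218 in P15. Its change of -0.74 (SE 0.32) did not pass the threshold (adjusted p = 0.0725), though it did without day 3 replicate 1 (adjusted p = 0.00278) or day 3 replicate 2 (adjusted p = 0.00293).

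Among scarcer members, the 3 called with the largest rise were miR-466c-5p, miR-297a-5p and miR-466b-5p, each at 0 in both ICM libraries. miR-466c-5p was at 86 and 78 in P2, 19 and 13 in P4 and 36 and 21 in P15. miR-297a-5p was at 61 and 68, 19 and 20, and 28 and 27 in the same order, and miR-466b-5p at 73 and 76, 18 and 14, and 26 and 25. Apart from the P2 libraries, only 1 P15 library each of miR-466c-5p and miR-297a-5p exceeded 27.2. Their changes at the floor were 0.58, 0.41 and 0.47 (adjusted p = 0.000397, 3.21e-05 and 0.0029), far under the values without a floor (5.09, 5.07 and 5.01), which depend on the 1 added before taking logs.

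The third comparison set ESCs against all outgrowths. Here 18 of 24 members were higher in ESCs and 1, miR-467d-5p, was lower, against 32.2% and 19.4% of all tested miRNAs. At the floor these were 17 of 21 (36.5% of all) and 1 (26.1%). Among the 17, miR-669d-5p, miR-669h-5p, miR-466e-5p and miR-669k-5p again entered the floor test only through ESC P2. All 7 tested miR-466 members and both miR-297 members passed as higher, with 7 of 10 miR-669 members and 2 of 5 miR-467 members. This comparison shares its ESC libraries with the previous one. With ESC P2 left out 10 members were higher (26.3% of all) and 2, miR-467d-5p and miR-467b-5p, were lower (16.5%).

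miR-669a-5p changed by 1.21 (SE 0.10, limma adjusted p = 8.12e-07), from 407.0 ± 158.2 in outgrowths (n = 10) to 1018.5 ± 601.8 in ESCs (SD, n = 6). Outgrowths ran from 226 to 714 and ESCs from 490 to 1834, so the 2 ranges overlapped, with both P4 libraries below both day 5 libraries. miR-466m-5p rose by 1.00 (SE 0.14, adjusted p = 8.03e-05), miR-467a-5p by 0.74 (SE 0.12, adjusted p = 0.000369) and miR-467c-5p by 0.65 (SE 0.16, adjusted p = 0.00532). Without P2 the value for miR-467a-5p was 0.10 (adjusted p = 0.614) and that for miR-467c-5p turned to -0.05 (adjusted p = 0.862). miR-669c-5p rose by 0.62 (SE 0.20, adjusted p = 0.0243), a call lost without either library of ESC P4 or P15 and without ESC P2 replicate 2. With totals made equal, miR-669c-5p was at 0.17 (adjusted p = 0.644) and miR-467c-5p at 0.21 (adjusted p = 0.406). miR-467d-5p fell by 0.39 on the log2 scale (SE 0.12, adjusted p = 0.0155). Of the scarce members called on the values as deposited, miR-669d-5p (3.83), miR-297a-5p (3.38) and miR-669k-5p (3.27) had the largest changes. At the floor these were 0.21, 0.41 (limma adjusted p = 9.27e-07) and 0.29. miR-669d-5p and miR-669k-5p exceeded the floor only in the ESC P2 libraries, so the filter fixed their direction and no p-value is given. The order at the floor was another, with miR-467e-5p (1.3) and miR-669l-5p (1.17) above miR-669d-5p, miR-297a-5p and miR-669k-5p.

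Day 5 and ESC libraries all list values down to 1 or 2, so this comparison does not cross the depth difference to days 0 to 3. No member passed as higher in ESCs and 3 passed as lower, all of the miR-467 family, where 5.91% of all tested miRNAs were higher and 8.05% lower. At an unadjusted p below 0.05 there were 7 members. Members that switch between 0 and listed values in days 0 to 3 carry a large standard error here too, because the fit shares 1 spread over all groups. At the floor, which removes that switching, 10 of 21 were higher (17.3% of all) and the same 3 were lower. The 10 include miR-669d-5p, miR-669h-5p, miR-466e-5p and miR-669k-5p, which entered the floor test only through ESC P2. On the values as deposited, the mean log2 level of P2 was above day 5 for all 10. That of P4 was above day 5 only for miR-669f-5p, miR-669d-5p, miR-466m-5p and miR-466h-5p among them.

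The 3 lower members were miR-467b-5p, miR-467d-5p and miR-467a-5p, which had also been higher in outgrowths than in ICM, a comparison that shares the day 5 libraries. miR-467b-5p fell from 394 and 357 on day 5 to between 32 and 204 in ESCs, with no overlap (log2 change -2.15, SE 0.33, limma adjusted p = 0.000964). miR-467d-5p fell from 607 and 574 to between 224 and 436, also without overlap (-0.93, SE 0.18, adjusted p = 0.00525). miR-467a-5p was at 888 and 1349 on day 5 and fell by 0.84 on the log2 scale (SE 0.19, adjusted p = 0.0133), but its P2 libraries were above both day 5 libraries. The call for miR-467a-5p was lost without day 5 replicate 2 (-0.54, adjusted p = 0.225) and that for miR-467d-5p without day 5 replicate 1 (-0.89, adjusted p = 0.0596). The sum of the 4 blood markers found under their listed names was highest on day 5, and its part was not tested.

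In almost all tested members ESC P2 was the highest of the ESC groups. Both P2 libraries lay above the 4 other ESC libraries in 22 of 24 tested members, where 22.5% of all tested miRNAs showed this. The exceptions were miR-669c-5p and miR-669o-5p, the latter at 0 in P2 and P15 and at 47 and 41 in P4. Across all 9 groups P2 had the highest mean for 20 of the 24, day 5 for 2 (miR-467b-5p and miR-467d-5p), ICM for miR-669c-5p and P4 for miR-669o-5p. P2 had the lowest library totals among ESCs, 781162 and 814289, and its replicates correlated best of all groups (Pearson r 0.988 across miRNAs, which are not independent replicates).

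By the moderated F test among the 3 ESC groups 8 of 24 members differed, which is near the share of all tested miRNAs (26.9%). At the floor 19 of 21 differed (49.9% of all). The 19 include miR-669d-5p, miR-669h-5p, miR-466e-5p and miR-669k-5p, which entered the floor test only through P2, the group in which they are high. The 8 were 4 miR-467 members, 3 miR-669 members and miR-466h-5p. miR-467a-5p had an adjusted p of 2.61e-05 and was 2.52 higher in P2 than in P4 and 1.34 higher than in P15 on the log2 scale. For miR-669a-5p (adjusted p = 4.21e-05) these differences were 1.77 and 1.25, for miR-467c-5p (0.000311) 2.11 and 2.06, and for miR-467b-5p (0.00172) 2.55 and 1.01. They were smaller for miR-467d-5p (adjusted p = 0.0337), at 0.89 and 0.51, and for miR-466h-5p (0.0484), at 0.61 and 0.92.

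Both scarce members that passed were highest in P2 as well. miR-669k-5p was at 48 and 54 in P2, 7 and 10 in P4 and 12 and 6 in P15 (adjusted p = 0.00274), and miR-669e-5p was at 29 and 26, 3 and 6, and 6 and 9 (0.00351). miR-669c-5p, the abundant member that did not follow, gave an adjusted p of 0.70 with a difference between P2 and P15 of -0.12. Between P4 and P15 miR-467c-5p differed by 0.05 and miR-669a-5p by 0.52, while miR-467b-5p (1.54) and miR-467a-5p (1.18) were higher in P15. For miR-467b-5p P15 was nearer to P2 (1.01) than to P4.

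**Figure D2:**
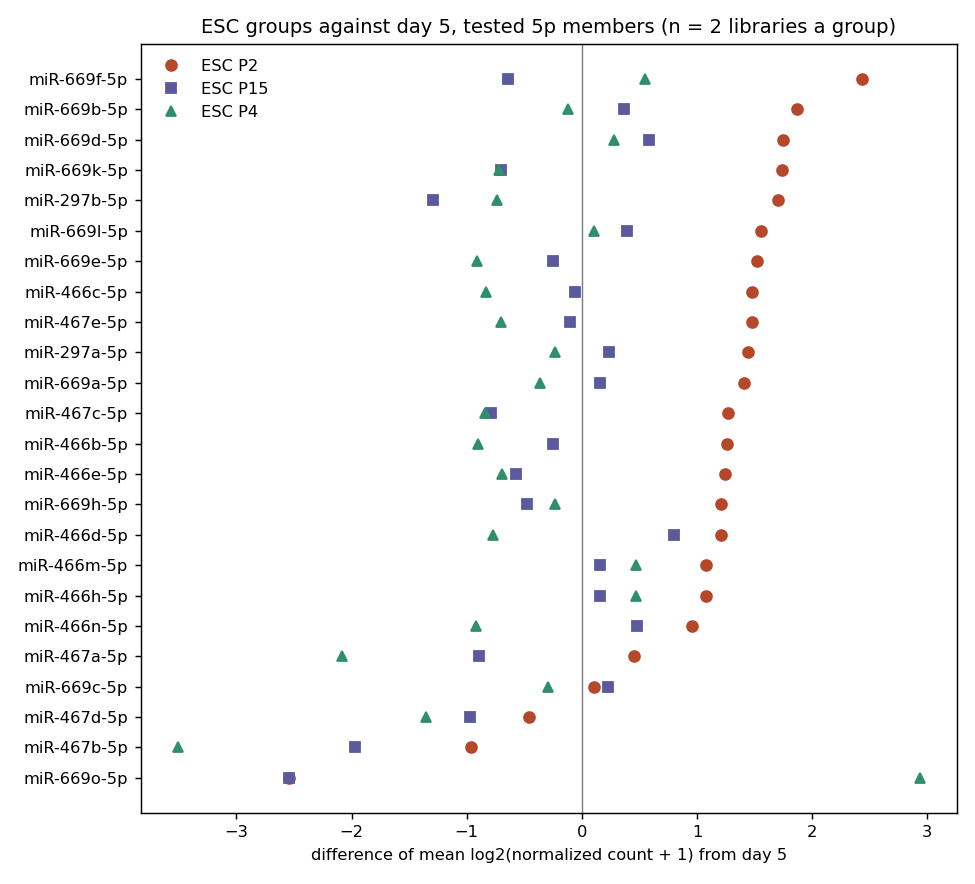
Difference of the mean log2(normalized count + 1) between each ESC group and day 5 (x axis) for the 24 tested members (y axis, sorted by the P2 difference), with 2 libraries a group and no error drawn. P2 lies to the right of 0 for all but miR-467d-5p, miR-467b-5p and miR-669o-5p, while P4 and P15 lie on both sides. miR-669o-5p is at 0 in P2, P15 and 1 of the day 5 libraries.

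Set against day 5, P2 was 1.41 higher for miR-669a-5p on the log2 scale, while P15 was 0.16 higher and P4 0.36 lower. The summed 5p level was 7125 ± 405 in P2, 2146 ± 4 in P4 and 2901 ± 69 in P15 (SD, n = 2), or 0.893%, 0.207% and 0.236% of all normalized counts. The day 5 share was 0.558% and the ICM share 0.275%, so as mean shares of the library P4 and P15 were below ICM and only P2 and day 5 were above it. In P2 the miR-467 family held 3741 ± 104 and the miR-669 family 2614 ± 196.

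The 3p arms of the same families were lower at later stages. Among 15 tested distinct 3p rows, limma called 0 higher and 8 lower in ESCs against ICM, with 9 at an unadjusted p below 0.05 and a median log2 change of -2.36. Of all tested miRNAs 31.8% were higher and 23.1% lower there. In outgrowths against ICM 0 were higher and 6 lower (median -0.83), and 0 were higher and 8 lower in ESCs against day 5 (median -1.28), with 6 and 8 at an unadjusted p below 0.05. The shares of all tested miRNAs were 16.7% higher and 18.2% lower in the first, and 5.91% and 8.05% in the second. The 3p sum was 6640 and 7141 in ICM, 5438 and 4779 on day 0.5, 5277 and 4766 on day 1, 3452 and 4010 on day 2 and 3343 and 3250 on day 3. It was 2046 and 2355 on day 5, 1839 and 1845 in P2, 624 and 631 in P4 and 853 and 662 in P15. Each group from day 2 on lay below all libraries of the groups before day 2, and ESCs lay below day 5. miR-466i-3p, whose CA-rich sequence is shown above and which lies on chromosome 13, was at 750 and 605 in ICM and at 8 to 40 in ESCs.

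The ratio of the 5p to the 3p sum does not depend on how a library is scaled. It was 0.238 and 0.253 in ICM, 0.289 and 0.299 on day 0.5, 0.274 and 0.380 on day 1, 0.604 and 0.524 on day 2, and 0.656 and 0.567 on day 3. It was then 1.892 and 1.858 on day 5, 3.718 and 4.017 in P2, 3.444 and 3.396 in P4 and 3.457 and 4.308 in P15. Days 0 to 1, days 2 to 3, day 5 and ESCs formed 4 ranges that did not overlap, and P2, which stood apart in 5p level, did not stand apart here. Reads shared among near copies weigh on these sums. Without miR-466h-5p and miR-466b-3p the ratio ran from 0.331 in ICM to 6.0 in ESC P2. Days 1 and 2 differed without overlap, at an estimated 177000 and 337000 reads on day 1 and 234000 and 236000 on day 2.

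**Figure D3:**
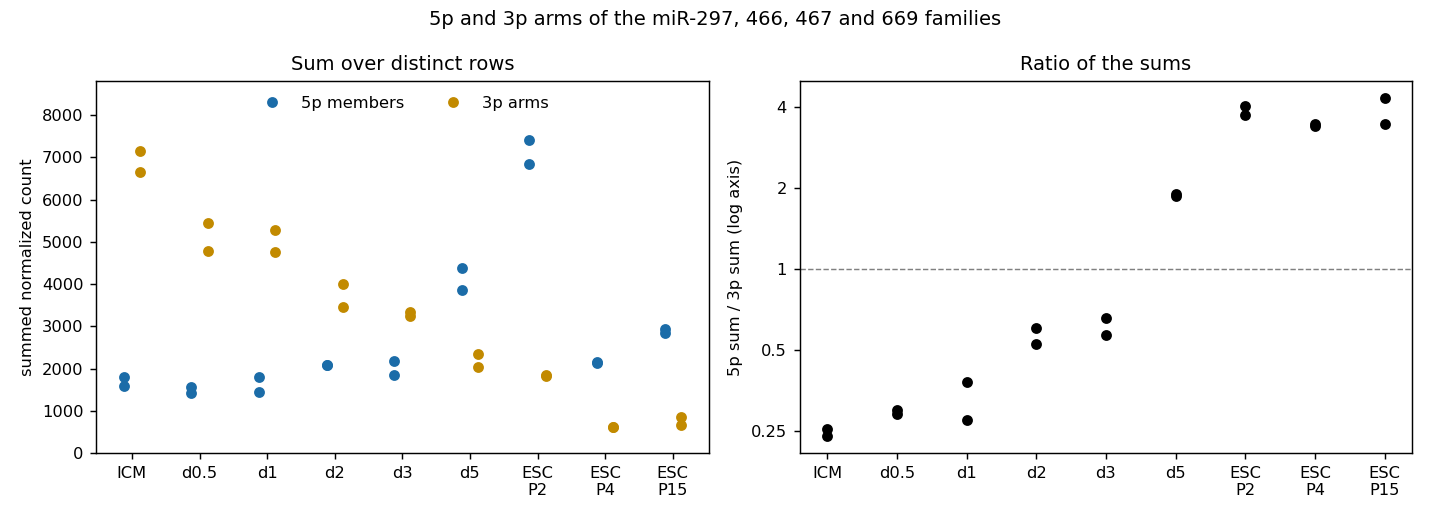
Left, sum of normalized counts (y axis, from 0) over the distinct 5p members (blue) and the distinct 3p arms (ochre) in each library of the 9 groups (x axis). Right, the ratio of the 5p to the 3p sum in each library (y axis, log scale), with a dashed line at 1. The 3p sum is highest in ICM and lowest in ESC P4 and P15, the 5p sum is highest in ESC P2, and the ratio is below 1 in all libraries of days 0 to 3 and above 1 in all libraries of day 5 and ESCs.

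Hairpin by hairpin, 8 hairpin names with distinct 5p values had each arm, counted separately, at 10 or more in at least 9 libraries. In this arm balance, log2 of 5p over 3p, 6 of the 8 were higher in ESCs than in ICM and 0 lower by limma, where 23.2% of 95 hairpins of the table were higher and 15.8% lower. Of the 8 names, 7 had an unadjusted p below 0.05. The members' median change was 4.89 against 0.20 over all 95. At the floor 8 of 8 were higher (42.1% of all). Against day 5, 2 of 8 were higher (4.21% of all) and at the floor 6 (15.8%). The 5p arms of miR-297a, miR-466b, miR-466c and miR-466e were at 0 in ICM and met the filter largely through day 5 and ESC libraries. Their rise against ICM is therefore partly fixed by this filter. Of the 4 names with a 5p arm above 0 in every library, 3 were higher against ICM (median 4.17) and 2 against day 5.

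For miR-669a the 3p arm was at 413 and 226 in ICM, 269 and 279 on day 0.5, 180 and 209 on day 1, 73 and 77 on day 2, 77 and 128 on day 3 and 146 and 117 on day 5. It was at 86 and 86 in P2, 20 and 22 in P4 and 52 and 50 in P15. The ratio of the group means was 1.05 in ICM, 5.23 on day 2, 5.12 on day 5 and 20.7, 24.9 and 14.7 in P2, P4 and P15. The arms were thus near parity in ICM and the 5p arm led in all ESC groups. The log2 ratio changed by 4.12 between ICM and ESCs (SE 0.36, limma adjusted p = 8.27e-06) and by 1.91 between day 5 and ESCs (SE 0.36, adjusted p = 0.00912). The second call was lost without day 5 replicate 1 (1.66, adjusted p = 0.142) or day 5 replicate 2 (2.15, adjusted p = 0.059).

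For miR-467d the 3p arm was at 82 and 198 in ICM, 60 and 79 on day 5 and 13 to 44 in ESCs. The 5p arm led in every group, by 1.7 in ICM, 8.5 on day 5 and 10.1, 14.9 and 9.11 in P2, P4 and P15 as the ratio of means. The log2 ratio rose by 2.55 from ICM to ESCs (SE 0.46, limma adjusted p = 0.0013), and the difference between day 5 and ESCs was 0.36 (SE 0.46, adjusted p = 0.891). For miR-466h the 3p arm was at 125 and 270 in ICM, 122 and 149 on day 5 and 0 to 11 in ESCs, with a change in log2 ratio of 5.55 (SE 1.29, adjusted p = 0.00598) against ICM and 5.12 (SE 1.29, adjusted p = 0.0465) against day 5. The call against ICM was lost without ICM replicate 2 (4.92, adjusted p = 0.0512), and the call against day 5 in 15 of 18 removals of a single library. miR-466m, whose 5p row is the near copy, did not pass against ICM (4.22, SE 1.65, adjusted p = 0.0636), though it did at the floor (3.01, adjusted p = 9.7e-05).

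The other called hairpins have abundant 3p arms. miR-466b-3p, which has the same values as miR-466c-3p, was at 2175 and 2279 in ICM, 570 and 648 on day 5, 663 and 650 in P2, 223 and 235 in P4 and 268 and 196 in P15. miR-466e-3p followed it closely, at 2529 and 2896 in ICM and 252 to 826 in ESCs. Their 5p arms were at 0 in ICM and at 10 to 86 in ESCs, so these 3p arms still exceeded their 5p arms in every library. The 5p row of miR-466b is also that of miR-466o, whose own 3p arm was at 207 and 167 in ICM, 78 and 72 in P2, 28 and 28 in P4 and 24 and 18 in P15. Paired with that arm, the 5p arm led in both P15 libraries and in P2 replicate 2, and the log2 ratio changed by 7.38 (SE 1.18, limma adjusted p = 0.000557) and by 2.71 at the floor (adjusted p = 1.52e-07). At the floor the log2 ratio rose by 3.24 for miR-466b, 3.35 for miR-466c and 2.91 for miR-466e (limma adjusted p = 6.86e-09, 4.89e-09 and 9.5e-09). These 3 share near-identical 3p rows. Their 5p arms alone changed there by 0.47, 0.58 and 0.19, so most of each rise is the fall of the 3p arm. These 5p arms were raised to the floor in ICM and in most ESC libraries outside P2. The p-values at the floor, also that for miR-466o, may therefore be too low. For miR-297a, the eighth, both arms were at 68 or less in every library and the change did not pass (3.96, SE 1.97, adjusted p = 0.134).

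**Figure D4:**
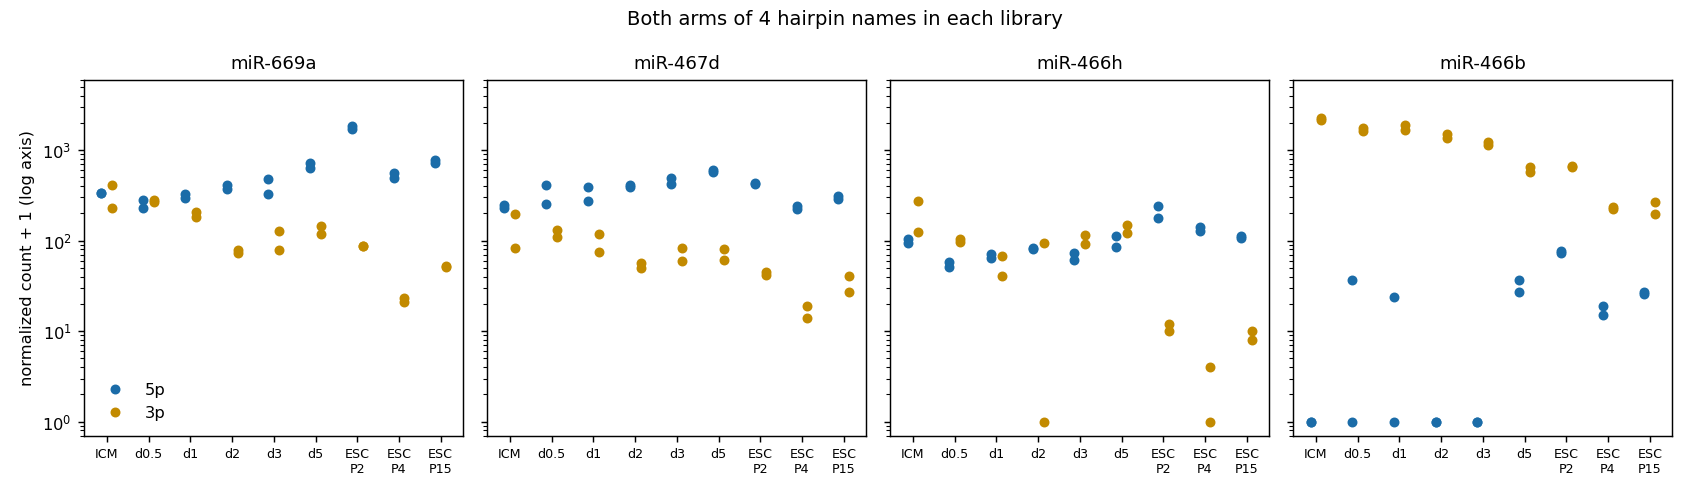
Normalized count plus 1 (y axis, log scale) of the 5p arm (blue) and the 3p arm (ochre) of miR-669a, miR-467d, miR-466h and miR-466b in each library of the 9 groups (x axis). Points at 1 are libraries listed at 0. The arms of miR-669a and miR-466h lie close together in ICM and apart in ESCs, the 5p arm of miR-467d stays ahead, and the 3p arm of miR-466b stays ahead in every library.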

How the data were processed

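Small-RNA libraries were made with a TruSeq kit from RNA isolated with a PureLink kit, per the labels' protocols. The submitters' processing notes name cutadapt, DESeq2 1.30.0 and mm10. Which aligner, counter and miRNA annotation were used is not given in the sources used here. The deposited values are a score in the sense that the authors rounded normalized counts to whole numbers, so no count model was used. All 18 columns were mapped to libraries, with 0 left over.

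From these values, log2(value + 1) was fitted by limma (version 3.58.1, R version 4.3.3, robust with a trend, 9 group means, 9 residual degrees of freedom) for miRNAs at 10 or more in at least 2 libraries, identical rows entered once, with Benjamini-Hochberg adjustment over all 795 rows tested (589 at the floor, 95 hairpins for arm ratios). The code was tested on simulated data with the depths of these libraries. There, many unchanged miRNAs were called in ESCs against ICM on the values as deposited, and few at the floor. Read steps were found where at least 98% of values below 1000 fell within 0.5 of a multiple. At 5 reads the Poisson error is 44.7% of the value, for counting error only. Members with a mean of at least 100 were described in full, and below that the 3 called with the largest rise and fall in each comparison. Members and lists were chosen with earlier results of these data known. Replicates were treated as unpaired. Alternatives were another pseudocount (5), no filter, the floor, rescaled totals, a replicate block, each library left out and, chosen after seeing the data, ESC P4 and P15 only.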

Additional observations from a re-analysis of the deposited data

Results flagged for a closer look

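In 3 abundant members the ESC groups lay on both sides of day 5, and the difference among the ESC groups passed the moderated F test of limma. These were miR-467a-5p (adjusted p = 2.61e-05), miR-669a-5p (adjusted p = 4.21e-05) and miR-467c-5p (adjusted p = 0.000311). In each, both P2 libraries were above both day 5 libraries and both P4 libraries were below them. miR-467a-5p and miR-467c-5p were also below day 5 in both P15 libraries, while both P15 libraries of miR-669a-5p (785 and 716) were above.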

How the results depend on the processing

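Over the counts of called members, 304 values from alternatives stayed within 1.5 times the count as reported and 34 did not. Over the abundant members, and the scarcer members named for the largest changes, 1091 single values kept direction and call. Of the others 22 gained a call, 59 lost one and 14 changed direction. Without the filter on low values, 1 member was lower in ESCs than in ICM, and 0 hairpins were higher in arm ratio against day 5. At the floor 3 members were lower in outgrowths than in ICM, 10 were higher in ESCs than on day 5, 19 differed among ESC groups, and 6 hairpins had a higher arm ratio than on day 5. With totals made equal, 1 was lower in ESCs than in ICM and 3 were lower in outgrowths. Rescaling also turned ESC against ICM for miR-466h-5p (-0.15), miR-466m-5p (-0.15) and miR-467d-5p (-0.33), outgrowths against ICM for miR-467c-5p (-0.19) and miR-669a-5p (-0.08), and ESC against day 5 for miR-669a-5p (-0.05) and miR-669c-5p (-0.43). With ESC P4 and P15 only, 10 members were higher and 2 lower than in outgrowths, miR-467c-5p turned to -0.05 in that comparison, and against day 5 miR-669a-5p turned to -0.10 and miR-669c-5p to -0.03. The causes were not tested.

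Replicate numbers did not pair the libraries (36 pairs of groups, r from -0.36 to 0.24, 3 above 0.1). With a replicate block 17 members were higher in ESCs than in ICM, 18 higher than in outgrowths and 3 lower than on day 5, and 1 hairpin had a higher arm ratio than on day 5.

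Leaving out each library in turn, members higher in ESCs than in ICM numbered 12 (without ICM replicate 1) to 20 and lower 0 to 1. Outgrowths against ICM gave 3 to 5 higher and 1 to 3 lower. ESCs against outgrowths gave 15 to 20 higher and 1 lower, and ESCs against day 5 gave 0 to 1 higher and 2 to 3 lower. Days 0 to 3 gave 4 to 7 and the ESC groups 6 to 12. Arm ratios gave 5 to 7 against ICM and 0 (without either day 5 library) to 2 against day 5. Single directions turned for miR-467c-5p in outgrowths against ICM without ICM replicate 1 (-0.18) and day 1 replicate 2 (-0.04), within a range up to 0.33, and for miR-669c-5p in ESCs against day 5 without day 5 replicate 1 (-0.06) and ESC P2 replicate 2 (-0.01), within a range up to 0.10. Depth limits all members below 27.2 in days 0 to 3.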

Other observations

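miR-467h, a relative on chromosome 9 whose name carries no arm, was at 188 and 209 in ESC P2 and at 31 to 57 in the other ESC libraries. It was at 38 and 81 in ICM and at 77 and 64 on day 5.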
